A study of Homo sapiens with 6 samples.

Results

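Nearly all proteins of mitochondria are made in the cytosol and must be imported, and the genes of that import machinery are described here in HCT15, a cell line from a human colorectal cancer. The members were every row whose symbol starts with TIMM or TOMM, plus the 12 named genes PAM16, GRPEL1, GRPEL2, SAMM50, MTX1, MTX2, MTX3, PMPCA, PMPCB, ROMO1, AFG3L2 and YME1L1. This rule gave 38 of the 12793 rows of the deposited table, and all 38 passed the filter on low values (1 FPKM or more on average). RNA was sequenced from 3 libraries of HCT15 cells labelled RBM15 knockout, made with CRISPR/Cas9, and from 3 libraries of HCT15 cells with a control guide, labelled WT. All cells were grown in RPMI-1640 with fetal bovine serum and antibiotics, and neither a guide sequence nor a clone is given in the labels. The RBM15 protein binds RNA and recruits the methyltransferase that places m6A on it.

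Import starts at the TOM complex of the outer membrane, whose receptors bind precursor proteins and whose channel passes them inward. Precursors with a cleavable presequence then cross the inner membrane through the TIM23 complex, pulled by an ATP-driven motor on the matrix side, and a processing peptidase removes the presequence. Carrier proteins are handed by small chaperones of the intermembrane space to the TIM22 complex, and barrel-shaped outer membrane proteins go to the SAM complex.

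Levels are in FPKM (fragments per length of transcript and per mapped total), a scale on which genes can be compared. The columns summed to between 402288 and 415057 FPKM, read depth could not be recovered from the values, and precision rests on the spread of the 3 libraries. Whether the 3 libraries of a group are separate cultures is not in the labels, and the p-values then reflect library spread alone, which may be technical. Every sample title ends in the word merge, and the titles do not say what was merged. Differences are log2(FPKM + 1) in the libraries labelled knockout minus that in the control libraries, tested with limma, with Benjamini-Hochberg adjustment across 11451 genes. A gene "rose" or "fell" where its level in the libraries labelled knockout was above or below the control level at an adjusted p of at most 0.05. RBM15, the target, had 17.3, 18.5 and 18.0 FPKM in the libraries labelled knockout, against 5.97, 5.89 and 5.51 FPKM in the control libraries. The targeted mRNA was thus higher where the label says knockout (log2 difference 1.48, SE 0.0492, adjusted p = 3.88e-06; exact 2-sided permutation p = 0.1, the smallest 3 against 3 can give), and every direction reported rests on the labels alone. Of 8 epithelial markers 7 were listed, each at a mean of at least 10 FPKM. Their summed level was 3481 to 3621 FPKM in the libraries labelled knockout and 3803 to 3896 FPKM in the controls. Of 5 fibroblast and 4 leukocyte markers, 1 each was analysed here, and none of those of endothelium, muscle, liver and neurons. COL1A1 of fibroblasts stood at 0.835 to 1.41 FPKM in the libraries labelled knockout and 0.917 to 1.41 FPKM in the controls. CD68 of leukocytes stood at 6.03 to 7.29 FPKM in the libraries labelled knockout and 2.66 to 3.08 FPKM in the controls, and the part of these markers in the results was not tested. In such bulk RNA, fewer cells of a kind and less RNA per cell cannot be told apart.

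Of the 38 import genes, 16 rose and 5 fell. The share that changed, 55.3%, lay beside a background of 54.5% of all tested genes, so the number of changed genes is not a result about the import machinery. By direction, 25.3% of all tested genes rose and 29.2% fell, an order that depended on the scaling: 2896 genes rose and 3349 fell as reported here, 3367 rose and 2894 fell under quantile normalization, and 3239 rose and 3044 fell with median centring. The median log2 difference of the 38 was 0.067, against -0.018 for all tested genes, and 0.127 against -0.024 with a trend over GC content and transcript length removed. Differences were small: those that rose did so by 0.153 to 0.745, those that fell by values between -0.333 and -0.113, and 0 of 38 reached 1 in either direction, against 205 of the 11451 tested genes. Knockout-labelled and control values were fully separated for 24 of the 38, beside 63% of all tested genes, and these 24 held all 21 that changed.

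**Figure D1:**
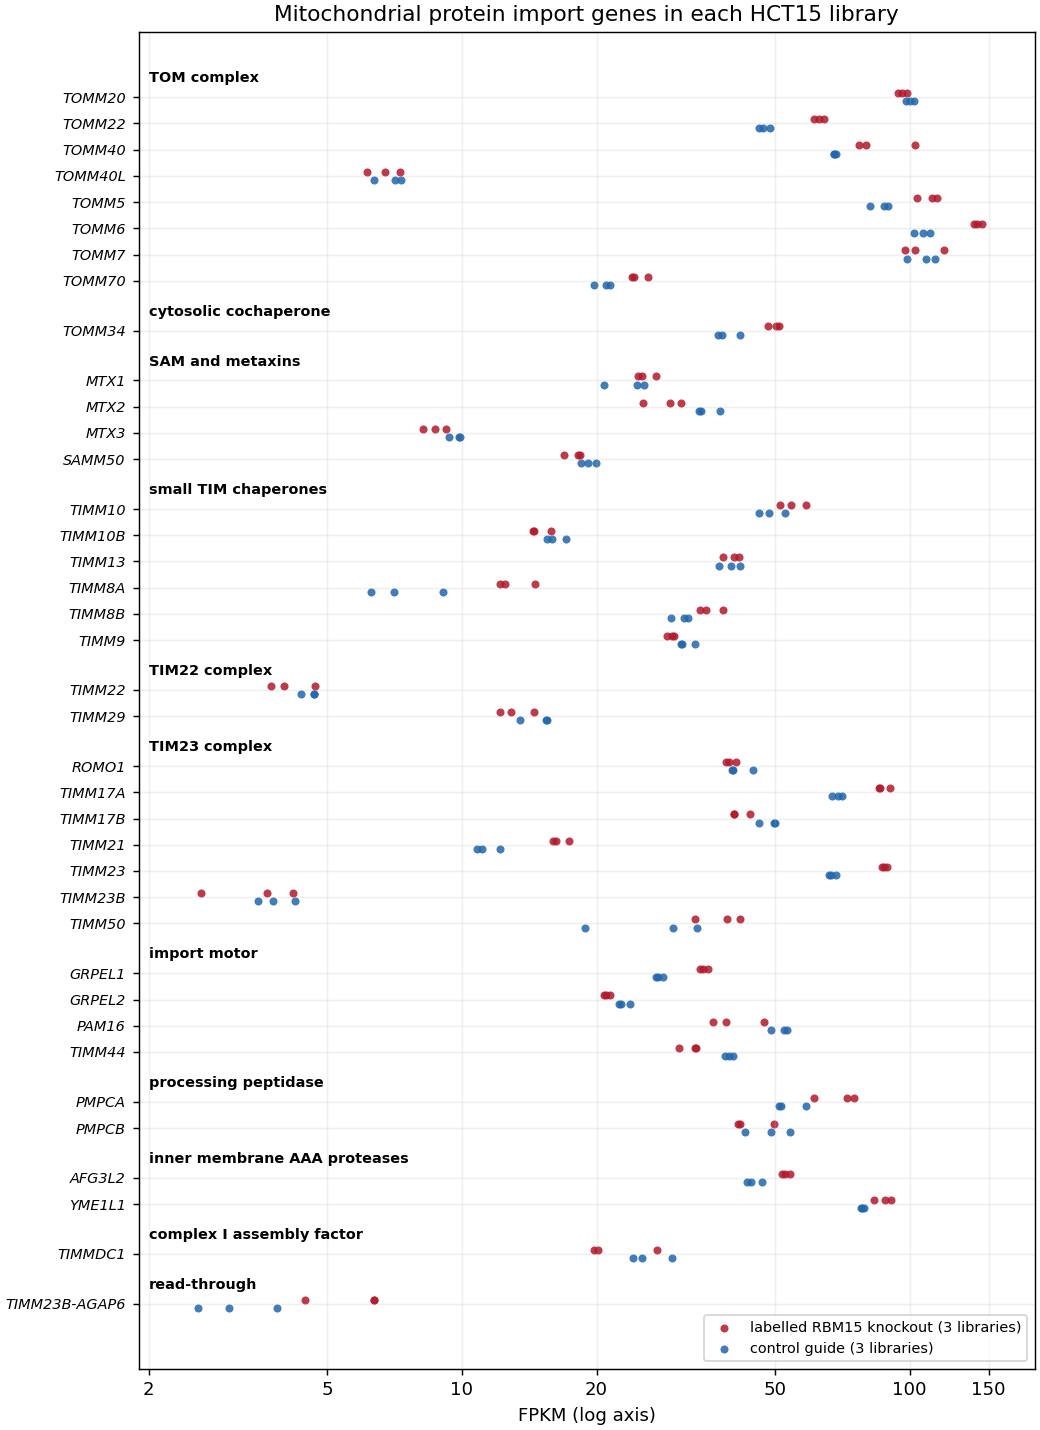
Level of each import gene in FPKM (log axis), by role, with 1 point per library: the 3 libraries labelled RBM15 knockout above the 3 control libraries in each row. Levels run from TOMM6, at 139 to 145 FPKM in the libraries labelled knockout, down to TIMM23B, at 2.62 to 4.20 FPKM in them, and the groups are apart for 24 of the 38 genes.

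In the TOM complex, the channel and part of its partners rose while other subunits did not pass. TOMM22, the central receptor that also holds the complex together, had 62.6, 64.3 and 61.3 FPKM in the libraries labelled knockout, against 48.7, 47.0 and 46.1 FPKM in the controls. All 3 values lay above all control values (log2 difference 0.40, SE 0.035, adjusted p = 0.000141). TOMM6, a small subunit that stabilises the complex, had 145, 139 and 141 FPKM in the libraries labelled knockout, against 102, 107 and 111 FPKM in the controls. All 3 values lay above the controls, and it rose by 0.41 (SE 0.0377, adjusted p = 0.000175). TOMM6 exons share 637 bases with another listed gene model on the same strand, AL365205.1, so the division of reads between them is uncertain.

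TOMM5, another small subunit, had 115, 112 and 104 FPKM in the libraries labelled knockout, against 81.4, 89.4 and 87.5 FPKM in the controls. It rose by 0.35 (SE 0.051, adjusted p = 0.00123), with 340 and 520 exon bases shared with AL513165.2 and AL138752.2 on its strand. TOMM40, the channel itself, had 79.8, 103 and 77.2 FPKM in the libraries labelled knockout, against 67.7, 68.3 and 67.6 FPKM in the controls. Knockout-labelled library 2 stood well above its fellows, and the difference of 0.34 (SE 0.101, adjusted p = 0.027) was 0.21 without it. Leaving out any control library left the difference at 0.333 to 0.341 but lost the call (adjusted p of 0.0633 to 0.0663), and up to 12.1% of the 31-base words of the TOMM40 transcript recur in transcripts of another annotated gene. TOMM70, the receptor for carrier precursors, had 24.2, 24.0 and 26 FPKM in the libraries labelled knockout, against 19.7, 21.0 and 21.4 FPKM in the controls. It rose by 0.25 (SE 0.0491, adjusted p = 0.00479).

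TOMM20, the receptor that first binds presequences, averaged 96.2 ± 2.37 FPKM in the libraries labelled knockout and 100 ± 1.76 FPKM in the controls (SD, n = 3 each). Its difference was -0.055 with a 95% half-width of 0.0726 (adjusted p = 0.167), and it passed at -0.093 with a trend over GC content and transcript length removed (adjusted p = 0.0271). TOMM7, the remaining small subunit, averaged 107 ± 11.2 FPKM in the libraries labelled knockout and 107 ± 8.05 FPKM in the controls, with a half-width of 0.197 around -0.013 (adjusted p = 0.908). TOMM40L, a paralog of TOMM40, averaged 6.72 ± 0.561 FPKM in the libraries labelled knockout and 6.94 ± 0.49 FPKM in the controls (adjusted p = 0.672). TOMM34 is not a pore subunit but a cytosolic cochaperone of HSP70 and HSP90 that binds precursors. It had 50.2, 51.0 and 48.3 FPKM in the libraries labelled knockout, against 41.7, 37.4 and 38.2 FPKM in the controls, and rose by 0.34 (SE 0.0484, adjusted p = 0.00106).

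**Figure D2:**
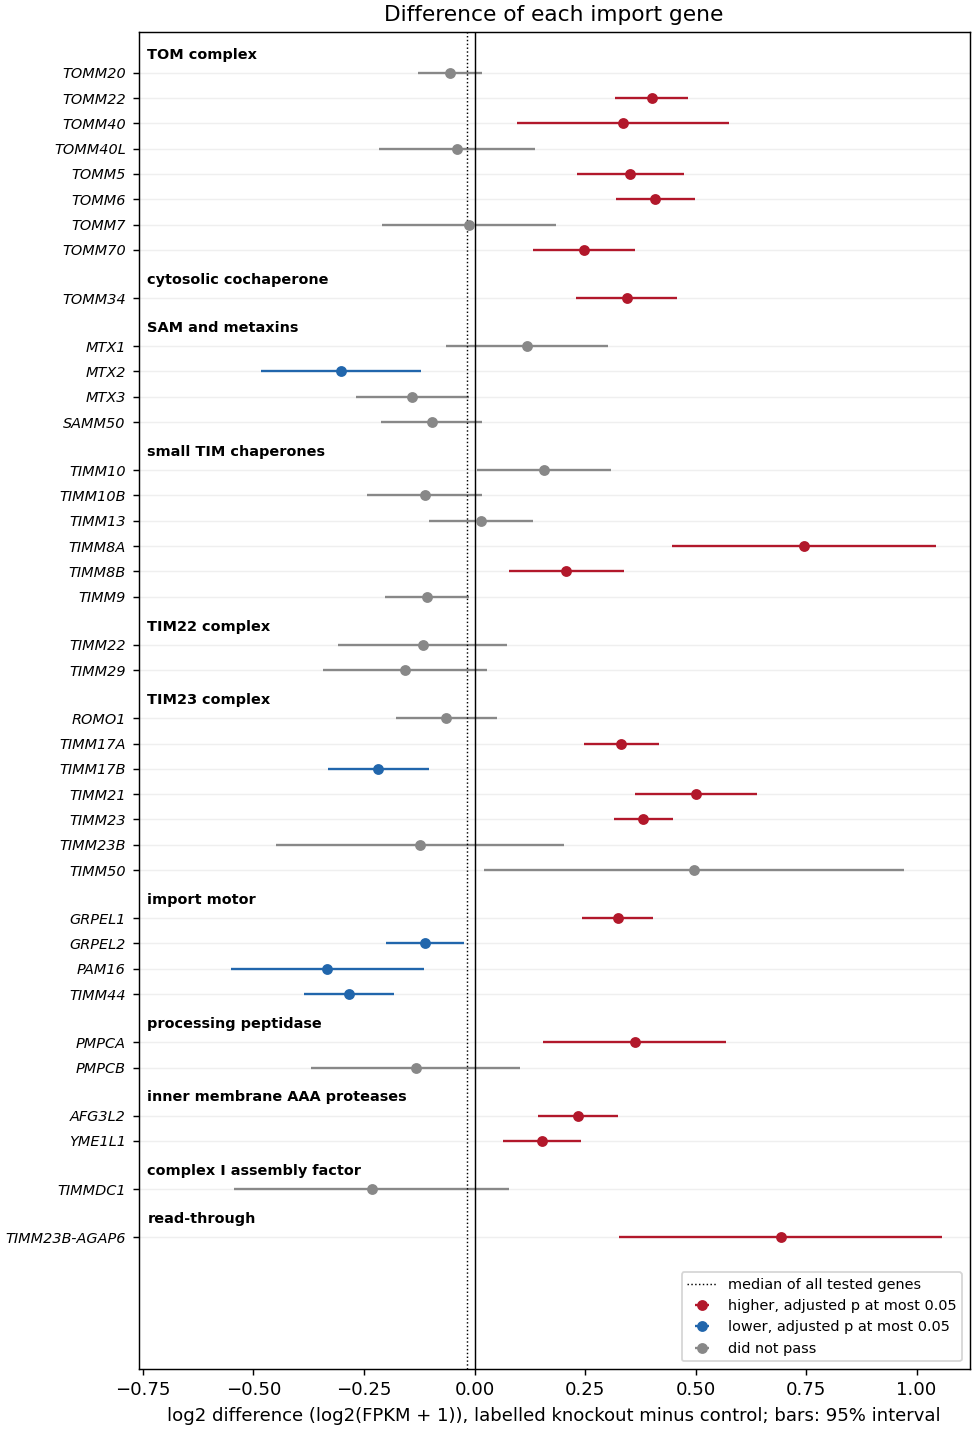
Log2 difference of each import gene, libraries labelled knockout minus control libraries, with the 95% interval from limma; red genes rose, blue genes fell, grey genes did not pass, and the dotted line is the median of all tested genes. TOMM22, TOMM40, TOMM5, TOMM6 and TOMM70 lie on the right of the TOM block, and TIMM44, PAM16 and GRPEL2 lie left of 0 in the motor block while GRPEL1 lies right of it.

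The SAM complex and its partners showed lower or similar levels. MTX2, a metaxin that works with SAMM50 in inserting barrel proteins, had 30.8, 25.4 and 29.2 FPKM in the libraries labelled knockout, against 34.2, 33.9 and 37.8 FPKM in the controls. The groups were apart, and MTX2 fell by 0.30 (SE 0.0765, adjusted p = 0.0135). SAMM50, the insertase, averaged 17.9 ± 0.816 FPKM in the libraries labelled knockout and 19.2 ± 0.693 FPKM in the controls (adjusted p = 0.129). MTX3 averaged 8.72 ± 0.509 FPKM in the libraries labelled knockout and 9.71 ± 0.279 FPKM in the controls (adjusted p = 0.0631). Values of SAMM50 and MTX3 did not overlap between groups although neither passed; both did with the GC and length trend removed (-0.133, adjusted p = 0.0401 for SAMM50, and -0.240, adjusted p = 0.00523 for MTX3). MTX1 averaged 25.7 ± 1.26 FPKM in the libraries labelled knockout and 23.6 ± 2.45 FPKM in the controls (adjusted p = 0.229), and 23.9% of its 31-base words recur in the pseudogene MTX1P1.

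Among the 6 small chaperones of the intermembrane space, 2 rose and the others did not pass. TIMM8A, which works as a complex with TIMM13 and is mutated in a deafness-dystonia syndrome, had 12.5, 12.2 and 14.6 FPKM in the libraries labelled knockout, against 6.26, 9.09 and 7.07 FPKM in the controls. Its difference of 0.745 (SE 0.126, adjusted p = 0.00239) was the largest of the 38 on log2(FPKM + 1). The plain ratio of mean FPKM was larger for TIMM23B-AGAP6, at 1.82 against 1.75 for TIMM8A. TIMM13, its partner, averaged 40.1 ± 1.69 FPKM in the libraries labelled knockout and 39.7 ± 2.06 FPKM in the controls (adjusted p = 0.81), and passed at 0.216 with the GC and length trend removed (adjusted p = 0.00389). TIMM8B, the paralog of TIMM8A, had 35.1, 38.3 and 34.1 FPKM in the libraries labelled knockout, against 29.3, 32.0 and 31.3 FPKM in the controls, and rose by 0.21 (SE 0.0549, adjusted p = 0.0161).

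TIMM9 and TIMM10 form the main carrier chaperone. TIMM10 averaged 54.8 ± 3.6 FPKM in the libraries labelled knockout and 49.1 ± 3.38 FPKM in the controls (adjusted p = 0.0762), and passed on the TPM scale (0.182, adjusted p = 0.0443) and with the replicate number as a block (adjusted p = 0.0145). TIMM9 averaged 29.3 ± 0.606 FPKM in the libraries labelled knockout and 31.7 ± 1.25 FPKM in the controls, with groups apart (adjusted p = 0.0576). TIMM10B, which docks the chaperone on TIM22, averaged 14.9 ± 0.793 FPKM in the libraries labelled knockout and 16.2 ± 0.807 FPKM in the controls (adjusted p = 0.123). TIMM22, the carrier insertase itself, averaged 4.16 ± 0.498 FPKM in the libraries labelled knockout and 4.58 ± 0.173 FPKM in the controls (adjusted p = 0.254). TIMM29, its partner, had 12.2, 12.9 and 14.5 FPKM in the libraries labelled knockout, against 13.5, 15.4 and 15.5 FPKM in the controls (adjusted p = 0.13); it passed at -0.223 without knockout-labelled library 3 (adjusted p = 0.044).

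In the TIM23 complex the pore genes rose, and the paralogs of TIMM17 changed in opposite directions. TIMM23, the pore-forming subunit, had 88.8, 87.6 and 86.6 FPKM in the libraries labelled knockout, against 66.2, 68.3 and 66.6 FPKM in the controls. It rose by 0.38 (SE 0.0283, adjusted p = 7.47e-05), the smallest adjusted p of the 38. TIMM17A, a core subunit whose protein is known to be degraded by YME1L1 during stress, had 90.3, 85.7 and 85.2 FPKM in the libraries labelled knockout, against 69.3, 70.5 and 67.0 FPKM in the controls. It rose by 0.33 (SE 0.036, adjusted p = 0.000344). TIMM17B, the alternative core subunit encoded on the X chromosome, had 43.9, 40.5 and 40.6 FPKM in the libraries labelled knockout, against 46.1, 50 and 49.8 FPKM in the controls. It fell by 0.22 (SE 0.048, adjusted p = 0.00751), and this became -0.12 (adjusted p = 0.0502) with the GC and length trend removed.

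TIMM21, which couples TIM23 to the respiratory chain, had 16, 16.2 and 17.4 FPKM in the libraries labelled knockout, against 11.1, 12.2 and 10.8 FPKM in the controls. It rose by 0.50 (SE 0.0585, adjusted p = 0.000481). TIMM50, the presequence receptor of the complex, had 41.9, 39.2 and 33.1 FPKM in the libraries labelled knockout, against 18.8, 29.6 and 33.6 FPKM in the controls. Control library 1 stood apart, and the difference of 0.50 (SE 0.201, adjusted p = 0.0735) was 0.26 without it. Without control library 3 it was 0.66 and passed (adjusted p = 0.0321). ROMO1, a small subunit, averaged 39.8 ± 1.01 FPKM in the libraries labelled knockout and 41.7 ± 2.49 FPKM in the controls (adjusted p = 0.294).

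TIMM23B is a copy of TIMM23 on chromosome 10, and its reads are hard to divide from those of TIMM23: 27.8% of the 31-base words of the TIMM23 transcript recur in TIMM23B. TIMM23B averaged 3.5 ± 0.807 FPKM in the libraries labelled knockout and 3.85 ± 0.369 FPKM in the controls (adjusted p = 0.475). The row called TIMM23B-AGAP6, which GENCODE 29 names LINC00843 and types as a long non-coding RNA, had 6.38, 4.47 and 6.36 FPKM in the libraries labelled knockout, against 3.03, 3.88 and 2.58 FPKM in the controls. It rose by 0.69 (SE 0.155, adjusted p = 0.00793). Its annotation shares 131 exon bases with TIMM23B and 68.8% of its 31-base words with PARGP1, so this value may hold reads of other copies. The promoters of both copies are shown because they are nearly the same sequence: 289 of 300 bases were identical in an alignment (RefSeq, GRCh38.p14, from 250 bases before the annotated start to 50 from it on, plus strand, 5′ to 3′, with no searched motif to set in capitals).

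TIMM23, chr10:45972239-45972538, 63% G or C:
TIMM23: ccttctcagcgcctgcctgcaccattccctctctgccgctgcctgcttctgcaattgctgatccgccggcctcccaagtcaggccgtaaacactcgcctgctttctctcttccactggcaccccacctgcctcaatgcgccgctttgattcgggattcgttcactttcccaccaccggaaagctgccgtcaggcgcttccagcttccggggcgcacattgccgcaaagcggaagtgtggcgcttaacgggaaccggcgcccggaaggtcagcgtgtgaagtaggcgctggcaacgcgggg
TIMM23B, chr10:49941803-49942102, 63.7% G or C:
TIMM23B: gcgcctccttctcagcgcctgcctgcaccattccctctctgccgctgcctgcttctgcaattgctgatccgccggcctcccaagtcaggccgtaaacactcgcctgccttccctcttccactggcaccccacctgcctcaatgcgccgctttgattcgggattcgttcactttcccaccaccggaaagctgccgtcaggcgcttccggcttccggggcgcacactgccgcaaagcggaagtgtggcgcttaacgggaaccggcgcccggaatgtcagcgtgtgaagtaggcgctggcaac

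The import motor held changes in both directions, and all 4 of its members passed. TIMM44, which ties the chaperone HSPA9 to the TIM23 pore, had 33.3, 33.2 and 30.6 FPKM in the libraries labelled knockout, against 38.7, 39.6 and 40.4 FPKM in the controls. It fell by 0.28 (SE 0.0429, adjusted p = 0.00148), and by 0.14 with the GC and length trend removed (adjusted p = 0.0131). PAM16, the J-like protein that restrains the motor's J protein, had 47.3, 39.0 and 36.4 FPKM in the libraries labelled knockout, against 53.1, 48.9 and 52.5 FPKM in the controls. Its fall of 0.33 (SE 0.092, adjusted p = 0.0194) lost its call without knockout-labelled library 2 (-0.303), knockout-labelled library 3 (-0.255), control library 1 (-0.3102) or control library 3 (-0.3185). PAM16 also shares 522 exon bases with the read-through gene CORO7-PAM16.

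GRPEL1, the nucleotide exchange factor that resets HSPA9, had 34.6, 35.5 and 34.1 FPKM in the libraries labelled knockout, against 27.4, 27.1 and 28.1 FPKM in the controls. It rose by 0.32 (SE 0.0341, adjusted p = 0.000305). GRPEL2, its paralog, had 21.4, 21.0 and 20.8 FPKM in the libraries labelled knockout, against 22.7, 23.7 and 22.4 FPKM in the controls. The groups were apart by a narrow gap, and the fall of 0.11 (SE 0.0374, adjusted p = 0.0369) was lost on the TPM scale (-0.092), with median centring (-0.086), with quantile normalization (-0.093), with the replicate number as a block (adjusted p = 0.0744) and without any library but control library 3 (-0.124 to -0.091). DNAJC19, the J protein that PAM16 pairs with, is no member by name but belongs to this motor. It had 14.0, 14.3 and 13.7 FPKM in the libraries labelled knockout, against 20.7, 19.8 and 20.7 FPKM in the controls, and fell by 0.515 (SE 0.0393, adjusted p = 8.2e-05). HSPA9, the motor's chaperone, averaged 192 ± 1.09 FPKM in the libraries labelled knockout and 192 ± 2.77 FPKM in the controls (difference 0.00, half-width 0.0575).

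PMPCA and PMPCB are the subunits of the peptidase that removes presequences. PMPCA had 61.2, 75.2 and 72.5 FPKM in the libraries labelled knockout, against 51.7, 51.0 and 58.8 FPKM in the controls, and rose by 0.36 (SE 0.0877, adjusted p = 0.0112). PMPCB, the catalytic subunit, averaged 44.3 ± 4.82 FPKM in the libraries labelled knockout and 48.7 ± 5.53 FPKM in the controls, with overlapping groups (adjusted p = 0.295). AFG3L2, the matrix-facing protease of the inner membrane, had 54.0, 51.8 and 52.7 FPKM in the libraries labelled knockout, against 44.2, 43.4 and 46.7 FPKM in the controls, and rose by 0.235 (SE 0.0382, adjusted p = 0.00201). YME1L1, its counterpart facing the intermembrane space, had 87.9, 83.4 and 90.9 FPKM in the libraries labelled knockout, against 77.9, 79.1 and 78.3 FPKM in the controls. It rose by 0.15 (SE 0.0371, adjusted p = 0.0113), and by 0.093 with the GC and length trend removed (adjusted p = 0.0466). Exons of AFG3L2 overlap 837 bases of TUBB6 and those of YME1L1 443 bases of MASTL on the opposite strand, and no source used here says if counting used strand. In all, exons of 23 import genes overlap another annotated gene, 9 of them on the same strand. TIMMDC1, which carries the prefix but is known as an assembly factor of complex I, averaged 22.4 ± 4.27 FPKM in the libraries labelled knockout and 26.3 ± 2.9 FPKM in the controls (adjusted p = 0.174), and passed at -0.379 without knockout-labelled library 3 (adjusted p = 0.0151).

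Ratios of related genes within a library, which do not depend on library scaling, were set side by side for 8 pairs chosen with earlier results known. The 3 values of the groups were apart in all 8, beside 63% of single genes. Gaps were narrow in some pairs. For TIMM10 over TIMM9 the lowest value in the libraries labelled knockout was 1.72, against a highest control value of 1.71. For PMPCA over PMPCB these values were 1.23 and 1.2. No share of pairs with groups apart was computed for other genes, and nothing particular to import genes is read from the count. TIMM17A over TIMM17B was 2.06, 2.11 and 2.10 in the libraries labelled knockout, against 1.5, 1.41 and 1.34 in the controls. GRPEL1 over GRPEL2 was 1.62, 1.69 and 1.64 in the libraries labelled knockout, against 1.21, 1.15 and 1.26 in the controls. Within the TOM receptors, TOMM20 over TOMM22 averaged 1.53 ± 0.0667 in the libraries labelled knockout and 2.12 ± 0.0456 in the controls. TIMM8A over TIMM8B averaged 0.368 ± 0.0554 in the libraries labelled knockout and 0.241 ± 0.0377 in the controls, and TIMM10 over TIMM9 averaged 1.87 ± 0.135 in the libraries labelled knockout and 1.55 ± 0.16 in the controls. PMPCA over PMPCB averaged 1.6 ± 0.321 in the libraries labelled knockout and 1.11 ± 0.137 in the controls, MTX1 over MTX2 averaged 0.907 ± 0.0798 in the libraries labelled knockout and 0.674 ± 0.107 in the controls, and TOMM40 over TOMM40L averaged 12.9 ± 2.19 in the libraries labelled knockout and 9.82 ± 0.678 in the controls. Each pair gave p = 0.1 in an exact 2-sided permutation test of the log2 ratio, the smallest that 3 against 3 libraries allow, and 0.1 again after adjustment over the 8 pairs, so none passed the threshold of 0.05. These ratios rest on the same values as the single-gene results and are not separate evidence.

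**Figure D3:**
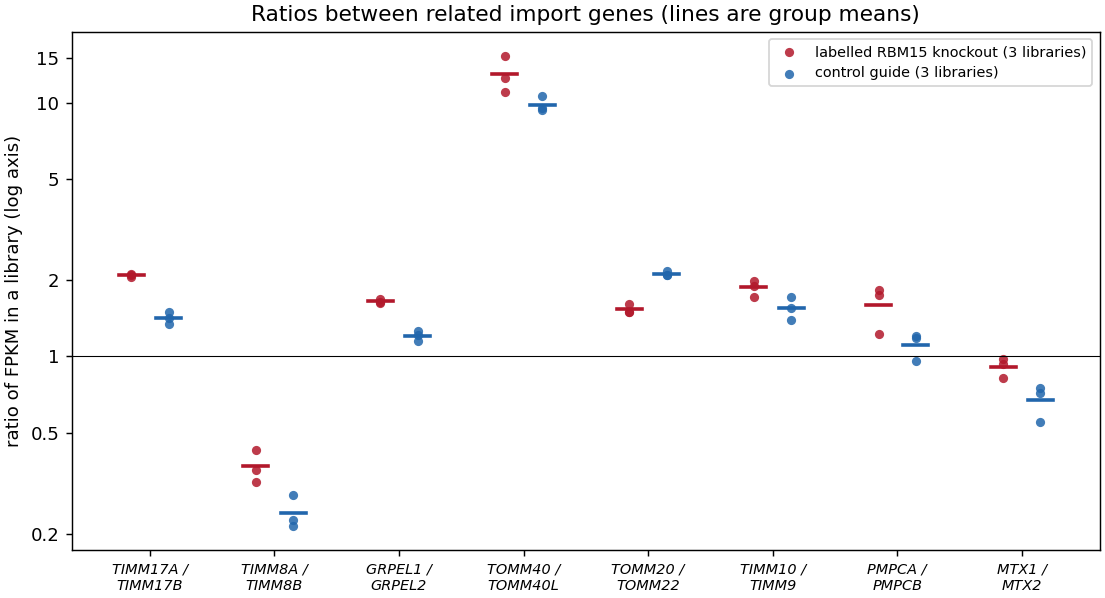
Ratio of FPKM of 2 related import genes within each library (log axis), with 1 point per library, the libraries labelled RBM15 knockout left of the control libraries, and a line at each group mean. TIMM17A over TIMM17B averages 2.09 in the libraries labelled knockout and 1.42 in the controls, and TOMM20 over TOMM22 averages 1.53 in the libraries labelled knockout and 2.12 in the controls.

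Promoter windows of 300 bases were available for 34 of the 38 import genes, and GRPEL1, TIMM8B, TOMM5 and YME1L1 had none. The row TIMM23B-AGAP6 carries the same window as TIMM23B, chr10:49941803-49942102. The annotated start of that row, as LINC00843, is chr10:49972763, which the window does not cover. The shared window holds no match, but it counts for both rows in the 34, and for TIMM23B-AGAP6 in the 12 of genes that rose. Each was searched on both strands for CCGGAAGT, an ETS-type site known for mitochondrial genes, for GCATGCGC, the core of the NRF1 motif, for the E-box CACGTG and for TGATGCAA, an ATF4-type element. The ETS-type letters stood in 11 of the 34 windows (32.4%), against 886 of the windows of 9137 tested genes (9.7%). They were in 2 of the 12 windows of import genes that rose (16.7%), in 2 of the 5 of those that fell (40%) and in 7 of the 17 of those that did not pass (41.2%). Over all tested genes the shares were 10.4% of those that rose, 8.15% of those that fell and 10.3% of those that did not pass. The NRF1 core was in 4 of the 34 windows (11.8%, against 5.89% of all), the E-box in 4 (11.8%, against 10.6%) and the ATF4-type element in 2, those of PMPCB and TIMM22 (5.88%, against 0.482%). No matches overlapped each other, and a match is a string of letters, not a shown binding site.

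**Figure D4:**
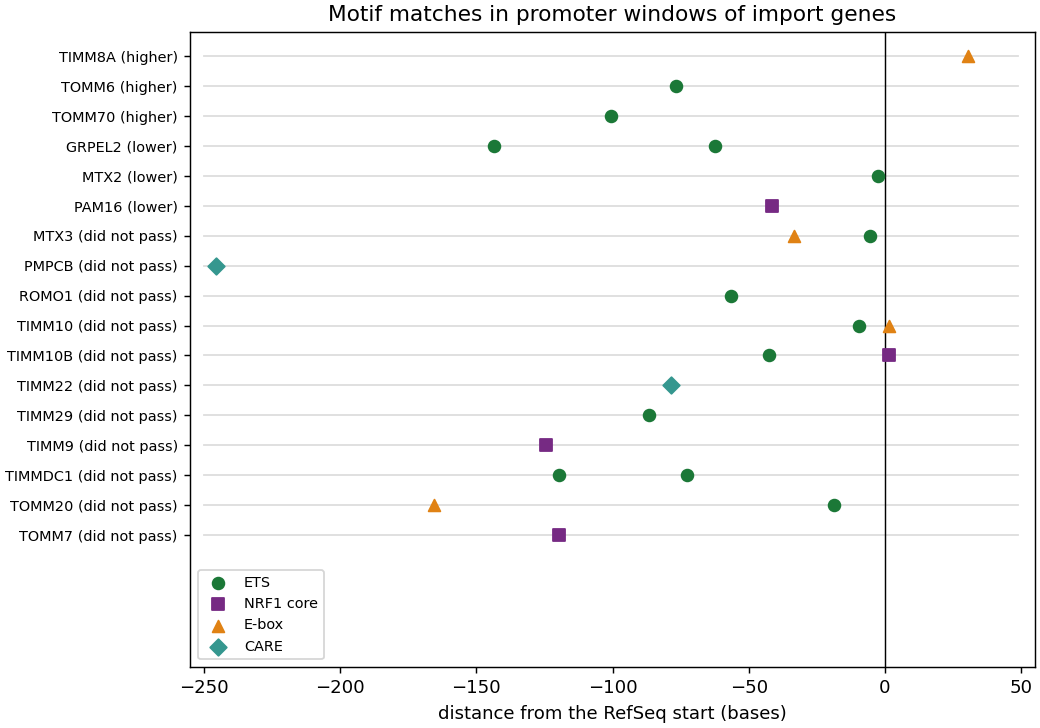
Position of each motif match in the promoter windows of the 17 import genes that hold at least 1, as distance in bases from the RefSeq start (0), with the gene's result in brackets. All 13 ETS-type matches lie within 150 bases before the start or on it.

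The windows printed next show both TIMM17 genes, which changed in opposite directions and hold none of the 4 motifs, and examples with a match in capitals: TOMM6, which rose, and GRPEL2, MTX2 and PAM16, which fell. Capitals mark CCGGAAGT in TOMM6, GRPEL2 and MTX2, and the reverse complement of the NRF1 core in PAM16. Of the TIMM17 windows, 167 of 300 bases were identical in an alignment. Sequences are from RefSeq (GRCh38.p14) and read 5′ to 3′ on the strand of the gene.

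TIMM17A, chr1:201955253-201955552, plus strand, 65.3% G or C:
TIMM17A: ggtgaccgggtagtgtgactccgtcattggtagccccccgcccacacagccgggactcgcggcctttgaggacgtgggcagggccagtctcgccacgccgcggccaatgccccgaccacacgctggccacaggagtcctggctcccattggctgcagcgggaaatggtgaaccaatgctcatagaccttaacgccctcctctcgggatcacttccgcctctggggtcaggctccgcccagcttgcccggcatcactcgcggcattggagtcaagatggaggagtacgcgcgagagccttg
TIMM17B, chrX:48897719-48898018, minus strand, 60% G or C:
TIMM17B: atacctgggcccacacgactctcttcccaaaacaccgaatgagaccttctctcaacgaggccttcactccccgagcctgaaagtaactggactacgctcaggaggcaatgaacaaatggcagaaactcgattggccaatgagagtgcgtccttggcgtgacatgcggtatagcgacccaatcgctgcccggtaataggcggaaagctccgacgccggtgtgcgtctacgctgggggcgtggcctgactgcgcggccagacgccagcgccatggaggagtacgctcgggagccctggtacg
TOMM6, chr6:41787444-41787743, plus strand, 67% G or C:
TOMM6: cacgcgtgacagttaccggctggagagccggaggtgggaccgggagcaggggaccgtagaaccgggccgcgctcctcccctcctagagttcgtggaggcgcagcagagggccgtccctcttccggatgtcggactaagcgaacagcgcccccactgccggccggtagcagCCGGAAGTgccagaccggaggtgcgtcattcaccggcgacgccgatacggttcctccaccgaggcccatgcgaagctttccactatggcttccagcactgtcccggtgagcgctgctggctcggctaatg
GRPEL2, chr5:149345249-149345548, plus strand, 60.3% G or C:
GRPEL2: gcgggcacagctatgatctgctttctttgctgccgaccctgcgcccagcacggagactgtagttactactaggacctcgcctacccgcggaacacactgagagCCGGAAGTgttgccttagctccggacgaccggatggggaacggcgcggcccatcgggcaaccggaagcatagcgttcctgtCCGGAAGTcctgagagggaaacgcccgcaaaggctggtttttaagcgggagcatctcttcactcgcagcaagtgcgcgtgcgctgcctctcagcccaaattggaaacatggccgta
MTX2, chr2:176269192-176269491, plus strand, 65.3% G or C:
MTX2: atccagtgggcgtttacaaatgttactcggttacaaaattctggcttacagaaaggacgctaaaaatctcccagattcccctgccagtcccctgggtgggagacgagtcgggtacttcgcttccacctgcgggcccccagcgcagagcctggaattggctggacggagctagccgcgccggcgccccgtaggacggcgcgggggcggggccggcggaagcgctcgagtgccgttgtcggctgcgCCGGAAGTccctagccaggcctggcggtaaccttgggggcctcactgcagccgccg
PAM16, chr16:4351272-4351571, minus strand, 69% G or C:
PAM16: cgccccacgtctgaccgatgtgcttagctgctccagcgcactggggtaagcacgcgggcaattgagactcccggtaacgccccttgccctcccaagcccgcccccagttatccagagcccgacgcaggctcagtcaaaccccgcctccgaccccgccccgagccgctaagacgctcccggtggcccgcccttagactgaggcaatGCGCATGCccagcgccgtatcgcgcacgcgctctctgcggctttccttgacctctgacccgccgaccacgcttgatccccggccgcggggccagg

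Genes that work beside the import machinery were listed in 6 groups of 60 genes in all, of which 59 were tested, 17 rose and 17 fell. The share that changed, 57.6%, was near the 54.5% of all tested genes. By list it was 50% of motor partners and matrix chaperones, 77.8% of the disulfide relay and its substrates and 57.1% of other peptidases and insertases. It was 58.3% of quality control proteases and prohibitins, 30.8% of outer membrane and MICOS genes and 80% of genes that watch over stalled import. With 7 to 13 tested genes a list, these shares are descriptions, and none was tested against the rest. Of 8 tested motor partners and matrix chaperones, 2 rose and 2 fell (median -0.014), and 6 in all changed with the GC and length trend removed. The folding chamber genes HSPD1 (851 ± 19.1 FPKM in the libraries labelled knockout, 721 ± 3.74 FPKM in the controls) and HSPE1 (338 ± 7.56 FPKM in the libraries labelled knockout, 272 ± 8.34 FPKM in the controls) rose by 0.24 and 0.31. HSCB, a cochaperone of iron-sulfur cluster assembly, fell by 0.74, beside DNAJC19. The disulfide relay traps small cysteine-rich proteins in the intermembrane space. Of 9 genes of the relay and its substrates, 3 rose and 4 fell (median -0.007). Without 1 library each, this list held 5 to 7 changed genes. Of the relay itself, CHCHD4 (0.326, adjusted p = 0.00701) and AIFM1 (0.126, adjusted p = 0.0258) rose, while GFER (-0.142, adjusted p = 0.0269) fell. The list held 6 changed genes on the TPM scale and 5 with the replicate number as a block. CMC1, COX19, CHCHD10 and CMC2 kept their calls in both settings, so the lost calls were among CHCHD4, AIFM1 and GFER. Which of them lost it is not given here. The copper chaperone gene COX19 had 3.57 ± 0.139 FPKM in the libraries labelled knockout and 5.88 ± 0.364 FPKM in the controls, and fell by 0.59. CMC1 fell by 0.68 and CHCHD10 by 0.52, while CMC2 rose by 0.35. With the GC and length trend removed CHCHD10 stood at -0.234 and CMC2 at 0.205, both still past the threshold.

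Of 7 other peptidases and insertases, 3 rose and 1 fell (median 0.090), a count that was 2 in all without control library 1 or control library 3. OXA1L, which inserts proteins into the inner membrane from the matrix, had 79.2, 82.2 and 82.5 FPKM in the libraries labelled knockout, against 57.1, 57.9 and 62.7 FPKM in the controls. It rose by 0.45 (SE 0.0427, adjusted p = 0.000193), and BCS1L, which inserts the Rieske protein, rose by 0.34. XPNPEP3 (0.226) and IMMP1L (-0.214) changed too, without a call in several settings: with the GC and length trend removed, adjusted p was 0.307 for XPNPEP3, and it was 0.0597 for IMMP1L without control library 3.

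Of 12 quality control proteases and prohibitins, 3 rose and 4 fell (median -0.017). OMA1, the stress-activated protease of the inner membrane, had 10.2, 9.65 and 9.94 FPKM in the libraries labelled knockout, against 17.4, 17.8 and 17.1 FPKM in the controls. Its fall of 0.75 (SE 0.0412, adjusted p = 2.49e-05) stood beside the rise of AFG3L2 and YME1L1, proteases of the same membrane. LONP1, the matrix protease, fell by 0.495, and the scaffold gene PHB1 rose by 0.39. PHB2, the other prohibitin gene listed, averaged 231 ± 6.26 FPKM in the libraries labelled knockout and 239 ± 0.872 FPKM in the controls. It did not pass (-0.049, adjusted p = 0.173). AFG1L changed by -0.289 and did not pass without 5 of the 6 libraries in turn (adjusted p of 0.051 to 0.0969), under quantile normalization (-0.149) or with a block (adjusted p = 0.0618).

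Among 13 genes of the outer membrane insertase, pores and MICOS, 3 rose and 1 fell (median 0.042). MTCH2, the insertase, rose by 0.195, the pore gene VDAC3 by 0.19 and DNAJC11 by 0.17. The other pore genes listed, VDAC1 (-0.037, adjusted p = 0.211) and VDAC2 (0.046, adjusted p = 0.617), did not pass. CHCHD6 changed by -0.237 and did not pass with the GC and length trend removed (-0.085), with a block (adjusted p = 0.0803) or without knockout-labelled library 2, knockout-labelled library 3, control library 2 or control library 3 (adjusted p of 0.0638 to 0.0936). Of 10 genes that watch over stalled import, 3 rose and 5 fell (median -0.136). PINK1, a kinase that gathers at TOM when import fails, had 18.5, 18.4 and 18.5 FPKM in the libraries labelled knockout, against 26.1, 25.9 and 25.9 FPKM in the controls, and fell by 0.47 (SE 0.0321, adjusted p = 5.53e-05). FKBP8, an outer membrane mitophagy receptor, fell by 0.38 (-0.122 with the GC and length trend removed, still past the threshold) and USP30, an outer membrane deubiquitinase, by 0.40, while VCP, which extracts proteins from membranes, rose by 0.39.

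**Figure D5:**
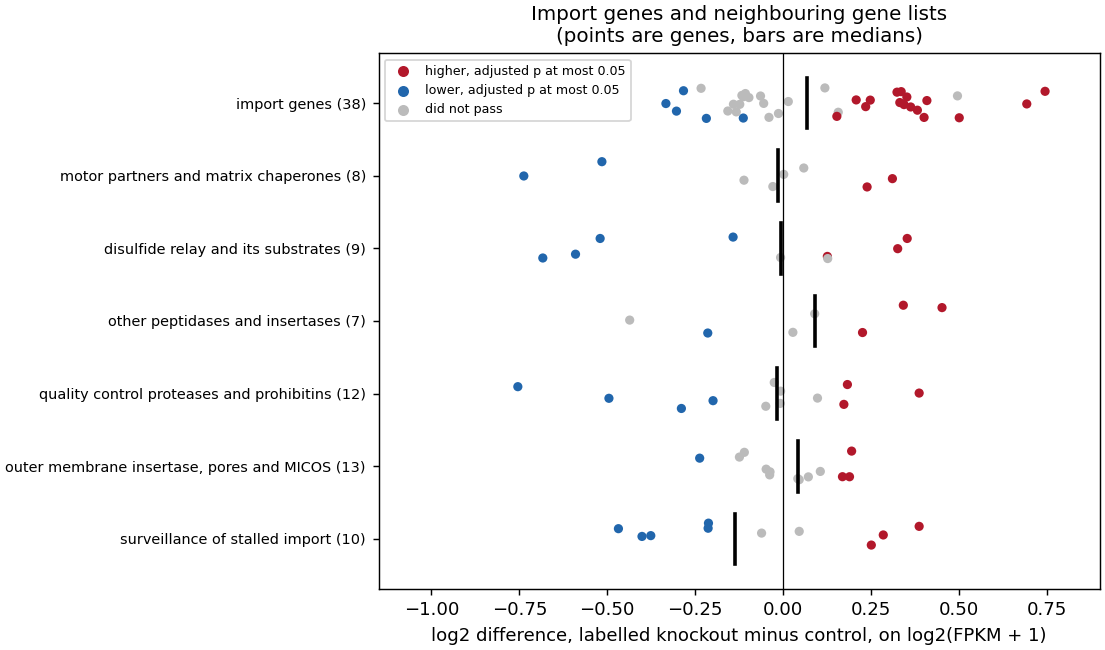
Log2 difference, libraries labelled knockout minus control libraries, of the 38 import genes and of the tested genes of 6 neighbouring lists; red points rose, blue points fell, grey points did not pass, and black bars are medians. List medians lie between -0.136 for genes that watch over stalled import and 0.090 for other peptidases and insertases, with genes on both sides of 0 in every list.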

How the data were processed

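The authors deposited FPKM for 6 libraries in 1 table, per the file headers. HISAT2 2.2.1 and StringTie 2.0.4 with hg38 are named in the submitters' processing notes; libraries were made with the VAHTS Universal V6 kit and read as pairs on an Illumina NovaSeq, per the labels' protocols. No source used here gives settings, annotation, use of strand or the choice of rows. Low values were searched for steps of whole reads: at most 0.93% of library ratios of values below 0.5 FPKM fell within a window 0.1% wide, so depth is unknown and no count test was run.

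The whole table was fitted with limma 3.58.1 (R 4.3.3) on log2(FPKM + 1), with 2 groups and a variance trend. Genes averaging 1 FPKM or more were kept, with 2-sided p adjusted over 11451 genes and a threshold of 0.05. The fit was tested on simulated data in which few genes changed, by more than most differences reported here. That test therefore does not bear on small differences. The log2(FPKM + 1) scale understates changes of low genes. Ratios and RBM15 used exact permutation tests. Gene coordinates, overlaps and shared words of 31 bases came from GENCODE 29 (GRCh38), promoters from RefSeq (GRCh38.p14), aligned with Biopython 1.88. Tables and figures used matplotlib 3.10.9, scipy 1.17.1, numpy 2.4.6 and pandas 2.3.3 under Python 3.11.15. Members, lists and pairs were chosen with earlier results of these data known. Every member is named; libraries are given singly for up to 5 changed members of a role with the largest differences, and up to 4 changed genes of each neighbouring list are named. DNAJC19's partner HSPA9, and CHCHD4, AIFM1, GFER, PHB2, VDAC1 and VDAC2, were named beyond this rule after their values were seen. Libraries of TIMM50 and TIMM29, which did not pass, are also given singly beyond it.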

Additional observations from a re-analysis of the deposited data

How the results depend on the processing

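Alternatives were a replicate block, quantile normalization, a fit without variance trend, values rescaled to TPM, centring on the median, a filter at 5 FPKM or none, a pseudocount of 0.1, removal of a GC and length trend (values for 97.5% of tested genes) and leaving out each library. The number of changed import genes was 21 and lay between 18 and 24 in all 15 settings. Of these 21, 17 passed in every setting that gave them a value (the filter at 5 FPKM left out TIMM22, TIMM23B and TIMM23B-AGAP6) and 4 (TOMM40, PAM16, GRPEL2, TIMM17B) lost the call in at least 1, with 0 reversed. Of the 17 that did not pass, 8 passed in at least 1 setting, and 6 turned sign in at least 1. ROMO1 became 0.032 and TIMM29 0.010 with the GC and length trend removed, TOMM40L became 0.0009 under quantile normalization, and TOMM7 became 0.012 on the TPM scale and 0.015 with median centring. Without 1 library each, TIMM13 ranged from -0.0227 to 0.0504, TIMM23B from -0.2365 to 0.0256, TOMM40L from -0.0917 to 0.0135 and TOMM7 from -0.0952 to 0.0468. Other peptidases and insertases held 2 to 4 changed genes without 1 library each. The cause of these changes was not tested. The replicate block left 21 changed import genes and 5782 of all genes, against 6245; same-numbered libraries correlated in their deviations at -0.0367 to 4.54e-05, so numbers were not treated as pairs. The median difference of all genes was between -0.024 and 0.025 across scalings. Read depth is unknown, so its limit on low genes such as TIMM22 and TIMM23B cannot be given.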

Other observations

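Starts of 7 import genes lay within 1000 bases of a listed gene read in the opposite direction (GENCODE 29), so that the pair leaves a common stretch of DNA. Of the 7 import genes and of the 7 neighbours, 3 each changed, beside 54.5% of all tested genes, so the counts show nothing particular to such pairs. In 1 pair both genes changed: PMPCA rose by 0.36 and ENTR1, whose start lies 39 bases away, rose by 0.26 (adjusted p = 0.00204), with 40 bases of shared exon on opposite strands. In 2 pairs the import gene changed and its neighbour did not pass, namely TIMM8B beside SDHD, a subunit of complex II (-0.013, adjusted p = 0.843, starts 25 bases apart), and TIMM17B beside PQBP1 (-0.094, adjusted p = 0.257). In 2 pairs the reverse held: ARFIP2 rose by 0.30 (adjusted p = 0.000329) beside TIMM10B, and YIPF2 fell by 0.32 (adjusted p = 0.00095) beside TIMM29. In the remaining 2, TIMM9 with KIAA0586 and ROMO1 with NFS1, neither gene passed. Whether members of a pair differ from each other in response was not tested.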
